A study of Mus musculus with 20 samples.

Results

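PROMPTs (promoter upstream transcripts) of near-silent protein-coding genes were followed in mouse SIMS cells, a cell line from salivary gland. A PROMPT region entered the set when its gene was protein coding in the GENCODE M21 annotation, when that gene had a mean of under 5 counts over the 3 wild-type libraries, and when the region itself held 10 or more counts over 19 libraries. Of 55471 regions in the deposited PROMPT table, 21974 belonged to protein-coding genes, 10519 of these genes were near-silent, and 2184 regions met the count minimum. Of the other near-silent genes, 4085 had 0 PROMPT counts in all 19 libraries and 4250 had 1 to 9. The members were thus chosen by wild-type gene counts and by their PROMPT counts summed over every group, the knockouts included.

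The study sequenced total RNA from unedited SIMS cells, from CRISPR/Cas9 Btbd7 knockout cells, which the design text names as the negative control, and from 3 CRISPR/Cas9 Zcchc8 knockout clones, all grown in the same serum-containing medium. The PROMPT table held 3 wild-type libraries (replicates 2, 3 and 4) and 4 libraries each of Btbd7 knockout and of Zcchc8 knockout clones 1, 2 and 3. The labels do not say whether libraries of a group came from separate cultures, so p-values measure the spread between these libraries, which may be technical. Each clone is 1 cell line, and its 4 libraries are not separate editing events. Zcchc8 gene counts checked the labels only in part. The Zcchc8 level was 65.5 ± 3.24 CPM (CPM, counts scaled to 1000000 gene counts per library; SD, n = 3) in wild type, 60.5 ± 4.21, 23.5 ± 1.43 and 54.5 ± 4.85 CPM (n = 4 each) in clones 1, 2 and 3, and 62.4 ± 3.93 CPM (n = 4) in Btbd7 knockout. Btbd7 fell to 99.4 ± 3.48 CPM (n = 4) in its own knockout from 199 ± 6.07 CPM (n = 3) in wild type. Gene counts per library ran from 6833258 to 17771804, and all 4 libraries of clone 1 lay at 7683444 or below. The 8 duct epithelial markers checked lay at 59.3 CPM or more in each of the 19 libraries, while the 12 markers of other cell types had medians from 0 to 133 CPM. Of these 12, Snap25, Pdgfra, Cdh5, Tubb3 and Pecam1 had a median of 0, and the highest were Aqp5 (133 CPM, an acinar water channel), Col1a1 (19 CPM), Cd68 (6.37 CPM) and Bhlha15 (1.53 CPM).

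A PROMPT is a short, unstable RNA made upstream of a gene's start, usually antisense to the gene, by RNA polymerase II that fires in both directions from an open promoter. ZCCHC8 holds together the NEXT complex (nuclear exosome targeting), which with the helicase MTR4 and the RNA-binding protein RBM7 hands such RNAs to the RNA exosome for destruction. When NEXT or the exosome is lost, PROMPTs of active promoters are known to build up. The near-silent genes are the other end of that scale, since their own mRNA is all but missing from these cells.

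The upstream bases of 6 members are shown because their PROMPT regions were at or near 0 in the controls and higher in the Zcchc8 knockout clones. Spesp1, Cldn18, Zscan10 and Zfp13 had under 10 counts in the controls together and entered the set through the clones. For these the difference is a description. Each run is the DNA just before the gene start on the gene's own strand, 5′ to 3′, from RefSeq on GRCm38.p6, with any bases inside the GENCODE gene removed, and capitals mark CG dinucleotides. The positions are chr9:62282209-62282429 (minus strand) for Spesp1, chr13:55426805-55427054 (minus) for F12, chr1:87183064-87183312 (plus) for Prss56, chr9:99717268-99717517 (minus) for Cldn18, chr17:23600576-23600825 (plus) for Zscan10 and chr17:23599488-23599737 (minus) for Zfp13.
Spesp1: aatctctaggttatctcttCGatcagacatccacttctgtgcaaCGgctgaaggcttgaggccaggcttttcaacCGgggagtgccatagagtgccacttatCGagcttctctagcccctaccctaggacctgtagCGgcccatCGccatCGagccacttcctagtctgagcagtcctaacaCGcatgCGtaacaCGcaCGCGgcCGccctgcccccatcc
F12: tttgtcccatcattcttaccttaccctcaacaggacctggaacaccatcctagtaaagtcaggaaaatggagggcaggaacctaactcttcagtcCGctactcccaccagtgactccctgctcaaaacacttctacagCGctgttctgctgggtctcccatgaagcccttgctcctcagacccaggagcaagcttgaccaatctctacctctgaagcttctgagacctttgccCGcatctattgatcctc
Prss56: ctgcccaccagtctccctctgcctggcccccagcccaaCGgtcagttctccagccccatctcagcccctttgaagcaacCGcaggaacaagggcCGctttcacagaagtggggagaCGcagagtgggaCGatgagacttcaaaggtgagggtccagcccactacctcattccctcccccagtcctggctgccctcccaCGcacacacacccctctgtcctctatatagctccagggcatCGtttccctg
Cldn18: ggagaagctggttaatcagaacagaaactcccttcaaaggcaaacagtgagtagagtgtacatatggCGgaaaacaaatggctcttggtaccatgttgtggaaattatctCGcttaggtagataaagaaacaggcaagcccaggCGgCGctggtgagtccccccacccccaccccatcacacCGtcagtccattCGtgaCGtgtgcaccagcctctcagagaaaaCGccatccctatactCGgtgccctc
Zscan10: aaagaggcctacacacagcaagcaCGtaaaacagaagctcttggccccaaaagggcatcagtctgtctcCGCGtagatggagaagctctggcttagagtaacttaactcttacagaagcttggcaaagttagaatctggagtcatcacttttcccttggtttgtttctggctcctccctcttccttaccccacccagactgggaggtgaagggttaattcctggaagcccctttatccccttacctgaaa
Zfp13: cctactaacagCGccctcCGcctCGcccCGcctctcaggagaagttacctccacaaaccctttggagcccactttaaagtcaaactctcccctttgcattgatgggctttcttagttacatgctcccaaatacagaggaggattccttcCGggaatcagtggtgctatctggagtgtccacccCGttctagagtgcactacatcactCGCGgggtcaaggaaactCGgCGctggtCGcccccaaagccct
The CG counts were 13 in Spesp1, 3 in F12, 7 in Prss56, 9 in Cldn18, 3 in Zscan10 and 11 in Zfp13, around a median of 6 over 32851 RefSeq windows of 250 bases. CG-rich and CG-poor stretches both occurred among them. A search on both strands for the polyadenylation hexamer AATAAA found no match in these 6 runs, and 18.1% of all windows hold it. The splice-donor motif GGTAAG matched 2 times in F12, where the matches overlap by 1 base, and 2 times in Zscan10, against 7.84% of all windows with a match. A match is only a match of letters. Promoter windows could be matched by symbol for 1490 of the 2184 members (68.2%), so base composition over the whole set was not compared.

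The genes themselves were close to silent by count, as the rule set. The mean wild-type count was 0 for 1278 of the 2184 genes, and 568 had no count in any of the 19 libraries. In wild-type replicate 1, which the rule did not use, 2086 of the 2184 genes stayed under 5 counts, and the highest of the other 98 reached 62. Near-silent here means few reads assigned to that gene ID. For 338 members (15.5%), 50% or more of the gene's span lies inside other genes at 1 CPM or more, where reads may have been assigned to the other gene or dropped as ambiguous. Their PROMPT counts over 19 libraries ran from 10 to 215982 with a median of 72. Just inside the gene-count threshold, 101 members with a wild-type mean from 4 to under 5 had a median log2 fold change of 0.21 between clones and wild type. Just outside it, 86 regions from 5 to under 6 had a median of 0.25. At the count minimum, 87 members held exactly 10 counts and 114 near-silent regions held 9.

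Most of the signal at these regions lay beside expressed genes. Other annotated genes within 5 kb upstream of the start, or across it, split the members into 777 with none, 490 with neighbours under 1 CPM, and 917 with a neighbour at 1 CPM or more. Those 917 members carried 93.8% of all member counts, against 3.51% for the 777 and 2.65% for the 490. The neighbour was on the opposite strand for 444, on the same strand for 408 and on both for 65.

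From 1 base outwards, the counts were lower the farther that neighbour lay. Among near-silent genes with a protein-coding neighbour at 20 CPM or more on the same strand, the median PROMPT count over 19 libraries was 5310 with the neighbour 1 to 1000 bases away. It was 1320 at 2001 to 3000 bases, 189 at 3001 to 4000 bases and 69 at 4001 to 5000 bases. With the neighbour on the opposite strand the median was 1030 at 1 to 1000 bases, 368 at 2001 to 3000 (10 regions only) and 31.5 at 4001 to 5000. Regions near a neighbour on either strand thus held many counts, and medians were lowest in the outermost bin. Where the neighbour overlapped the start (76 regions on the same strand and 166 on the opposite strand), the medians were 652 and 746, below those at 1 to 1000 bases. The extent and strand of the counted regions are not given in the sources used here.

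**Figure D1:**
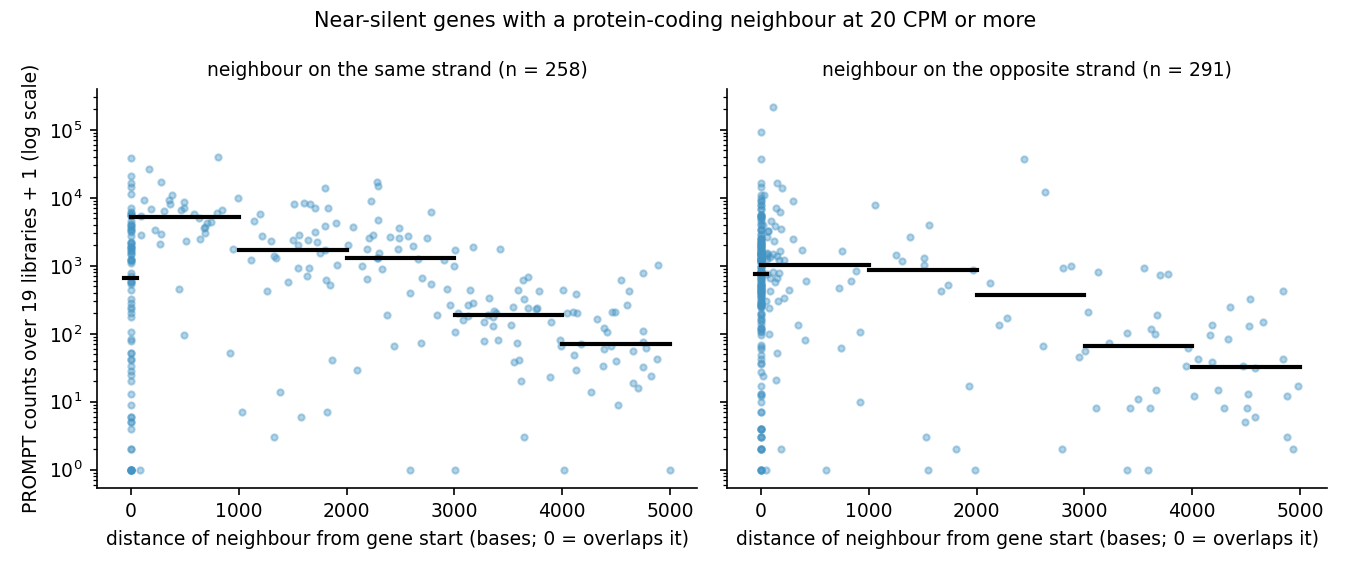
PROMPT counts over 19 libraries plus 1 (log scale) of each near-silent gene with a protein-coding neighbour at 20 CPM or more, against the neighbour's distance from the gene start in bases, by strand. Black bars are bin medians, which fall from 5310 to 69 counts on the same strand and from 1030 to 31.5 on the opposite strand between the bin of 1 to 1000 and that of 4001 to 5000 bases. At 0 the neighbour overlaps the start, with medians of 652 and 746.

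The summed PROMPT level separated the groups only where no expressed gene lay close, among the 3 neighbour classes compared. For the 777 members with no other gene in 5 kb, the summed level was 239.6, 226.1 and 276.7 CPM in the wild-type libraries and 237.3, 225.5, 219.5 and 236.6 CPM in Btbd7 knockout. It was 394.5, 378.3, 414.2 and 444.6 CPM in clone 1, 364.1, 370.1, 364.8 and 356.4 CPM in clone 2, and 418.3, 392.3, 432.8 and 393.3 CPM in clone 3. All 12 Zcchc8 knockout libraries were above all 7 control libraries, with a mean 1.59-fold that of wild type and 1.71-fold that of Btbd7 knockout. For the same class of other protein-coding genes (4409 regions) the corresponding folds were 3.67 and 3.87. For the 490 members with neighbours under 1 CPM, the mean was 204 ± 5.08 CPM (SD, n = 3) in wild type, 200 ± 8.26 CPM (n = 4) in Btbd7 knockout, and 254 to 302 CPM over the 12 clone libraries, 1.36-fold wild type and again without overlap. For the 917 beside expressed genes, the sums were 8410 ± 407 CPM (n = 3) in wild type and 8390 to 9590 CPM in the clones, 1.04-fold, and the groups overlapped. The highest came from clone 2 replicate 3, where the Ccnb1ip1 region of this class reached 1710 CPM. Without Ccnb1ip1, all members summed to 8110 ± 158 CPM in wild type and 7980 ± 18.6 CPM in Btbd7 knockout. Clones 1, 2 and 3 then had 8530 ± 88.4, 8340 ± 142 and 8500 ± 194 CPM. All clone libraries were then above every Btbd7 knockout library, while clone 2 overlapped wild type. The class alone without Ccnb1ip1 was not tested. These sums are descriptions, since members that passed the count minimum through the knockout libraries had to be higher there. In bulk RNA, more cells making a transcript and more transcript per cell cannot be told apart.

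**Figure D2:**
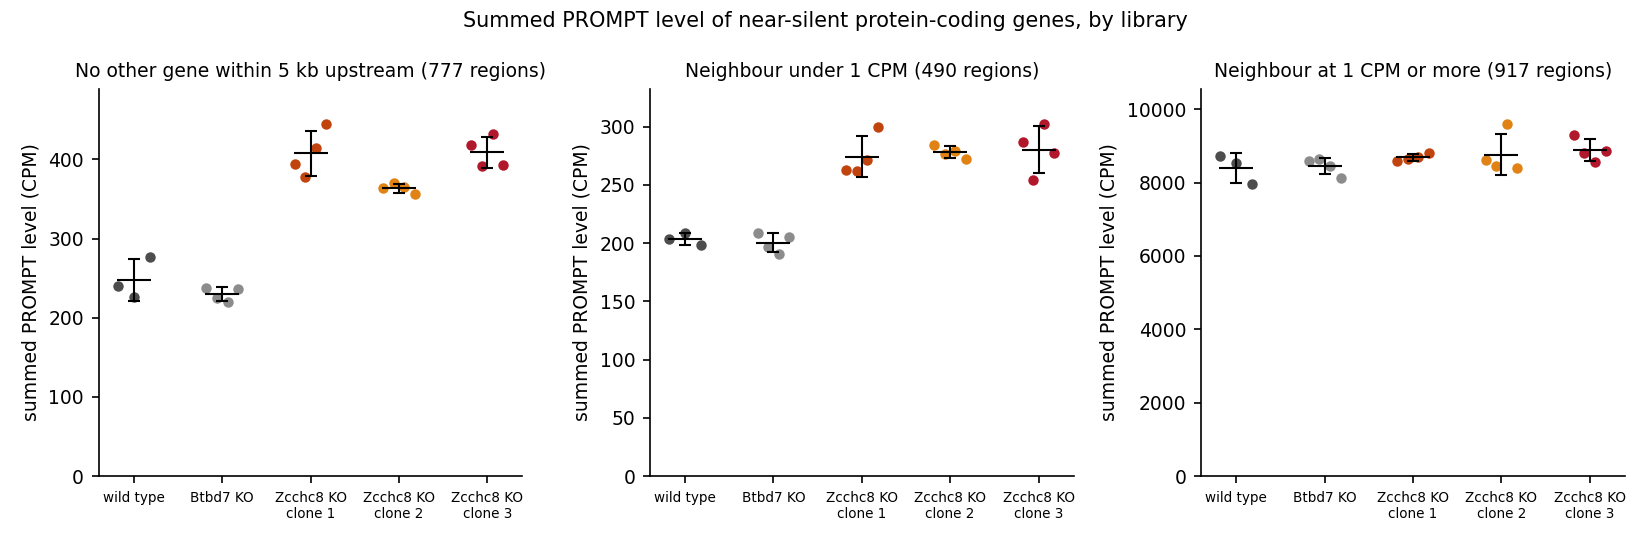
Summed PROMPT level (CPM of gene counts) of the members in each library, in 3 panels by upstream neighbour, with points for libraries and bars for mean ± SD. With no gene within 5 kb, the controls span 219.5 to 276.7 CPM and the Zcchc8 knockout libraries 356.4 to 444.6 CPM, while beside expressed genes the groups overlap.

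By edgeR's quasi-likelihood test on all 24335 regions with 10 or more counts, adjusted p under 0.05, 271 members (12.4%) were higher in the mean of the 3 clones, where 30.3% of all regions were. Another 73 members (3.34%) were lower, against 3.03% of all regions. Among the other 10230 protein-coding regions, 5397 (52.8%) were higher and 178 (1.74%) lower. The median log2 fold change was 0.36 for members, 0.53 for all regions and 1.52 for the other protein-coding regions. With the 314 members at 0 in wild type or in all clones placed at their bounds, the members' median was 0.26. A member that reached 10 counts only through the clones had to be higher there, so counts and medians over members are descriptions. Of the 1451 members with 10 or more counts in the 7 control libraries alone, a choice made after seeing the data, 205 were higher (14.1%) and 70 lower (4.82%), against 31.9% and 3.71% of all regions with such counts.

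The balance of these calls changed with the scaling. Library sizes and scaling factors came from gene counts, and 78.8% of the called members were higher. With factors computed within the PROMPT table itself, the median of all regions moved from 0.53 to 0.13 and that of members to -0.03. Then 153 members were higher and 294 lower, so 34.2% of the calls were higher. The shares of all regions called under that scaling are not given here, so these counts are not particular to the members. Gene-table factors were planned because scaling within a class of regions moves a general change towards 0. The direction of the split between higher and lower members therefore holds under gene-table scaling only, of the scalings run.

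Each clone gave a like picture on its own, all against the same 3 wild-type libraries. In clone 1, 286 members were higher and 56 lower (all regions 30.3% and 2.93%). Clone 2 had 237 higher and 61 lower (all regions 27.5% and 2.5%), and clone 3 had 235 higher and 34 lower (all regions 27.7% and 1.87%). In each of the 3 clones 127 members were called higher (21.2% of all regions) and 6 lower (0.39% of all regions). In Btbd7 knockout against wild type 17 members were higher and 15 lower, beside 1.01% and 1.29% of all regions. Against Btbd7 knockout the mean of the clones was higher in 334 members and lower in 94, where all regions gave 34.7% and 4.61%. Against both controls 183 members were higher and 28 lower, beside 25.7% and 1.46% of all regions. The 12 clone libraries were all above the 7 control libraries in 62 members (2.84%, against 15.4% of all regions). They were all below in 2, for which the share of all regions is not given here, so the 2 are a description.

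The shares were larger where counts were higher. Of members with 100 or more counts over 19 libraries, 21% of 986 were higher, against 38.2% of all regions with such counts. Under edgeR's own count filter, 22.0% of 1061 members were higher and 4.34% lower, beside 39.4% and 3.77% of all regions. DESeq2 called 322 members higher and 41 lower, and gave 495 no adjusted p. Its shares of all regions are not given here. At 100 or more counts and with no gene within 5 kb, 26.2% of 160 members were higher, where 84.8% of 2802 other protein-coding regions were. The median log2 fold change of those 160 was 0.50, and that of the 2802 was 2.54. In that class 53 of the 160 members (33.1%) had a log2 fold change over 1, against 2446 of the 2802 (87.3%). In bins of total counts over 19 libraries, the share of members called higher with no gene within 5 kb was 8.84% at 30 to 99 counts, 21.2% at 100 to 299 and 38.9% at 300 to 999. The corresponding shares of other protein-coding regions were 42.5%, 74.7% and 92.2%.

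**Figure D3:**
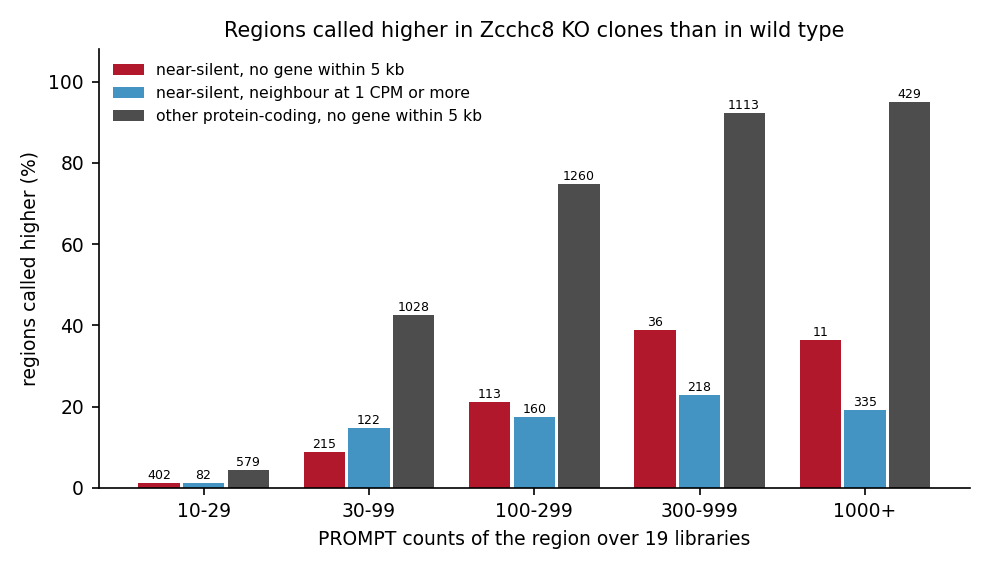
Share of PROMPT regions (%) called higher in the mean of Zcchc8 knockout clones than in wild type (edgeR, adjusted p under 0.05), by total counts over 19 libraries, with the number of regions above each bar. Near-silent genes with no gene within 5 kb reach 38.9% at 300 to 999 counts, where other protein-coding genes of the same class reach 92.2%. The totals take in the clone libraries.

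**Figure D4:**
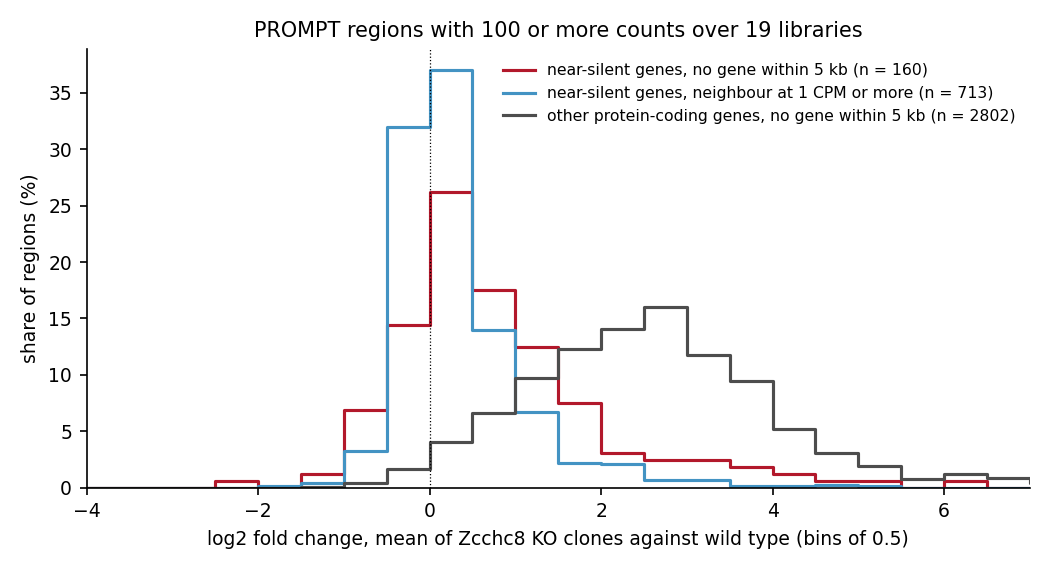
Distribution of log2 fold changes (mean of Zcchc8 knockout clones against wild type, bins of 0.5) for regions with 100 or more counts, as a share of each class in %. The 160 near-silent genes with no gene within 5 kb centre at a median of 0.50 with a tail to the right, and the 2802 other protein-coding genes centre at 2.54.

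By neighbour class, 66 of the 777 members with no gene in 5 kb were higher (8.49%) and 23 lower, beside 42.4% and 1.03% of all regions of that class. With neighbours under 1 CPM, 44 of the 490 were higher (8.98%) and 11 lower, beside 30.2% and 1.36%. Beside an expressed gene, 84 of 444 were higher with the neighbour on the opposite strand (18.9%), 61 of 408 on the same strand (15%) and 16 of 65 on both (24.6%). All regions of these classes gave 25.7%, 17.2% and 33.4% higher. In the same order 12, 23 and 4 members were lower, beside 4.41%, 5.36% and 4.9% of all regions. Among other protein-coding regions the share higher was largest with no gene (64.3%), then 55.7% with low neighbours and 42.3%, 31.2% and 45.0% in the expressed classes. The members' larger shares beside expressed genes go with larger counts. Their median log2 fold change was 0.75 with no gene (0.38 with members at 0 placed at their bounds), 0.59 with low neighbours (0.36), and 0.21, 0.15 and 0.19 in the expressed classes. For the 366 members with no gene in 5 kb and 10 or more counts in the controls it was 0.24 (0.21 with bounds), near the expressed classes. The neighbouring gene itself was called higher for 28 of 84, 29 of 61 and 6 of 16 higher members of the expressed classes (33.3%, 47.5% and 37.5%). For all members of those classes it was called higher in 14.2%, 16.2% and 27.7%, and the neighbours' median log2 fold changes were -0.06, 0.01 and 0.02.

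Spesp1, F12, Gm11011, Gm17581, Prss56, Gm16253, 1700064H15Rik and Gng13 had no annotated gene in the 5 kb upstream and 100 or more counts, and were called higher in each clone and against both controls. Of the members that met these conditions, the 8 with the largest fold changes are these. Spesp1, Gm17581 and 1700064H15Rik, like Dcst2, Zscan10, Cldn18, Zfp13 and Il12rb1 further on, had under 10 counts in the 7 controls together. They entered the set through the clones, so their differences are descriptions and carry no p-value here.

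Spesp1 (ENSMUSG00000046846.4, chr9:62270729-62282208, minus strand) encodes a protein of the sperm equatorial segment, and its gene had 0 counts in all 19 libraries. Its PROMPT region had 0 counts in the 3 wild-type and 4 Btbd7 knockout libraries. Counts were 4, 4, 6 and 12 in clone 1, 5, 15, 21 and 27 in clone 2, and 7, 2, 12 and 6 in clone 3. All 12 clone libraries thus held counts where the 7 controls held none. The level over the clones was at least 14.6-fold higher than wild type, taking 3 counts over the wild-type group as its limit.

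F12 (ENSMUSG00000021492.15, chr13:55417958-55426793, minus strand) encodes coagulation factor XII, a plasma protein made in liver, and had 1 gene count in all. The PROMPT counts were 0, 2 and 1 in wild type and 0, 2, 2 and 3 in Btbd7 knockout. Clone 1 gave 3.46 to 4.5 CPM, clone 2 gave 1.15 to 3.17 CPM and clone 3 gave 1.02 to 3.21 CPM, and no clone library overlapped a control library, whose highest level was 0.255 CPM. On the log2 scale the clones stood 5.26 ± 0.63 (SE) above wild type (adjusted p 7.79e-15 by edgeR), and the difference between clones did not pass the test (adjusted p 0.333).

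Prss56 (ENSMUSG00000036480.9, chr1:87183313-87188405, plus strand) encodes a serine protease studied in eye growth. Its PROMPT level was 0.291, 0 and 0.294 CPM in wild type and 0.0601, 0.0667, 0.372 and 0.0851 CPM in Btbd7 knockout. It was 4.57, 4.88, 5.37 and 4.36 CPM in clone 1, 1.94, 3.44, 5.42 and 3.18 CPM in clone 2, and 2.42, 1.88, 3.7 and 2.18 CPM in clone 3. Every clone library exceeded every control library. The difference from wild type was 4.02 ± 0.48 (SE) in log2 units, with an adjusted p of 4.2e-15 (edgeR).

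Gm11011, a predicted gene, differed in size between clones. Its PROMPT level was 6.3 ± 0.374 CPM in clone 1, 2.31 ± 0.506 CPM in clone 2 and 4.12 ± 1.61 CPM in clone 3 (n = 4 libraries each, SD), against 0.163 ± 0.181 CPM (n = 3) in wild type. The test that the clones are equal gave an edgeR adjusted p of 0.00187. Gng13, a G protein gamma subunit of taste and olfactory signalling, also differed, at 2.59 ± 1.13, 0.711 ± 0.314 and 1.93 ± 0.395 CPM (SD, n = 4 each; edgeR adjusted p 0.0224). For Gng13 the controls overlapped the clones, since Btbd7 knockout reached 1.11 CPM. The other 3, Gm17581, Gm16253 and 1700064H15Rik, had log2 fold changes of 4.41 ± 0.90, 3.69 ± 0.57 and 3.45 ± 0.75 (SE).

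Without the neighbour condition, the largest changes also took in Dcst2, Zscan10 and Cldn18. Cldn18 (ENSMUSG00000032473.13, chr9:99689461-99717267, minus strand), a tight-junction claudin of stomach and lung, had PROMPT counts of 1, 0 and 0 in wild type and 1, 0, 0 and 0 in Btbd7 knockout. The counts were 15, 31, 21 and 28 in clone 1, 16, 5, 35 and 29 in clone 2, and 28, 20, 7 and 28 in clone 3. Clones and wild type differed by 6.09 ± 0.81 (SE) on the log2 scale, while the Cldn18 gene itself held 46 counts over 19 libraries and did not pass the test against Btbd7 knockout (log2 fold change -2.03, edgeR adjusted p 0.0679). Dcst2, a sperm membrane protein gene, was at 0 counts in all wild-type libraries and at least 15.4-fold higher over the clones by the same limit.

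Zscan10, a zinc finger transcription factor of embryonic stem cells, and Zfp13, a zinc finger protein, start 1369 bases apart and point away from each other, so 1 stretch of DNA lies upstream of both. Zscan10 PROMPT counts were 0 in every wild-type library, and 0, 2, 0 and 0 in Btbd7 knockout. They were 15, 4, 7 and 15 in clone 1, 1, 5, 12 and 15 in clone 2, and 14, 3, 8 and 11 in clone 3. Zfp13 counts followed at 5, 1, 4 and 8, then 1, 0, 9 and 4, then 5, 1, 8 and 6, with 0 in wild type and 0, 2, 0 and 0 in Btbd7 knockout. The bounds against wild type were at least 14.3-fold for Zscan10 and at least 6.94-fold for Zfp13. Whether reads were shared between the pair was not tested.

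**Figure D5:**
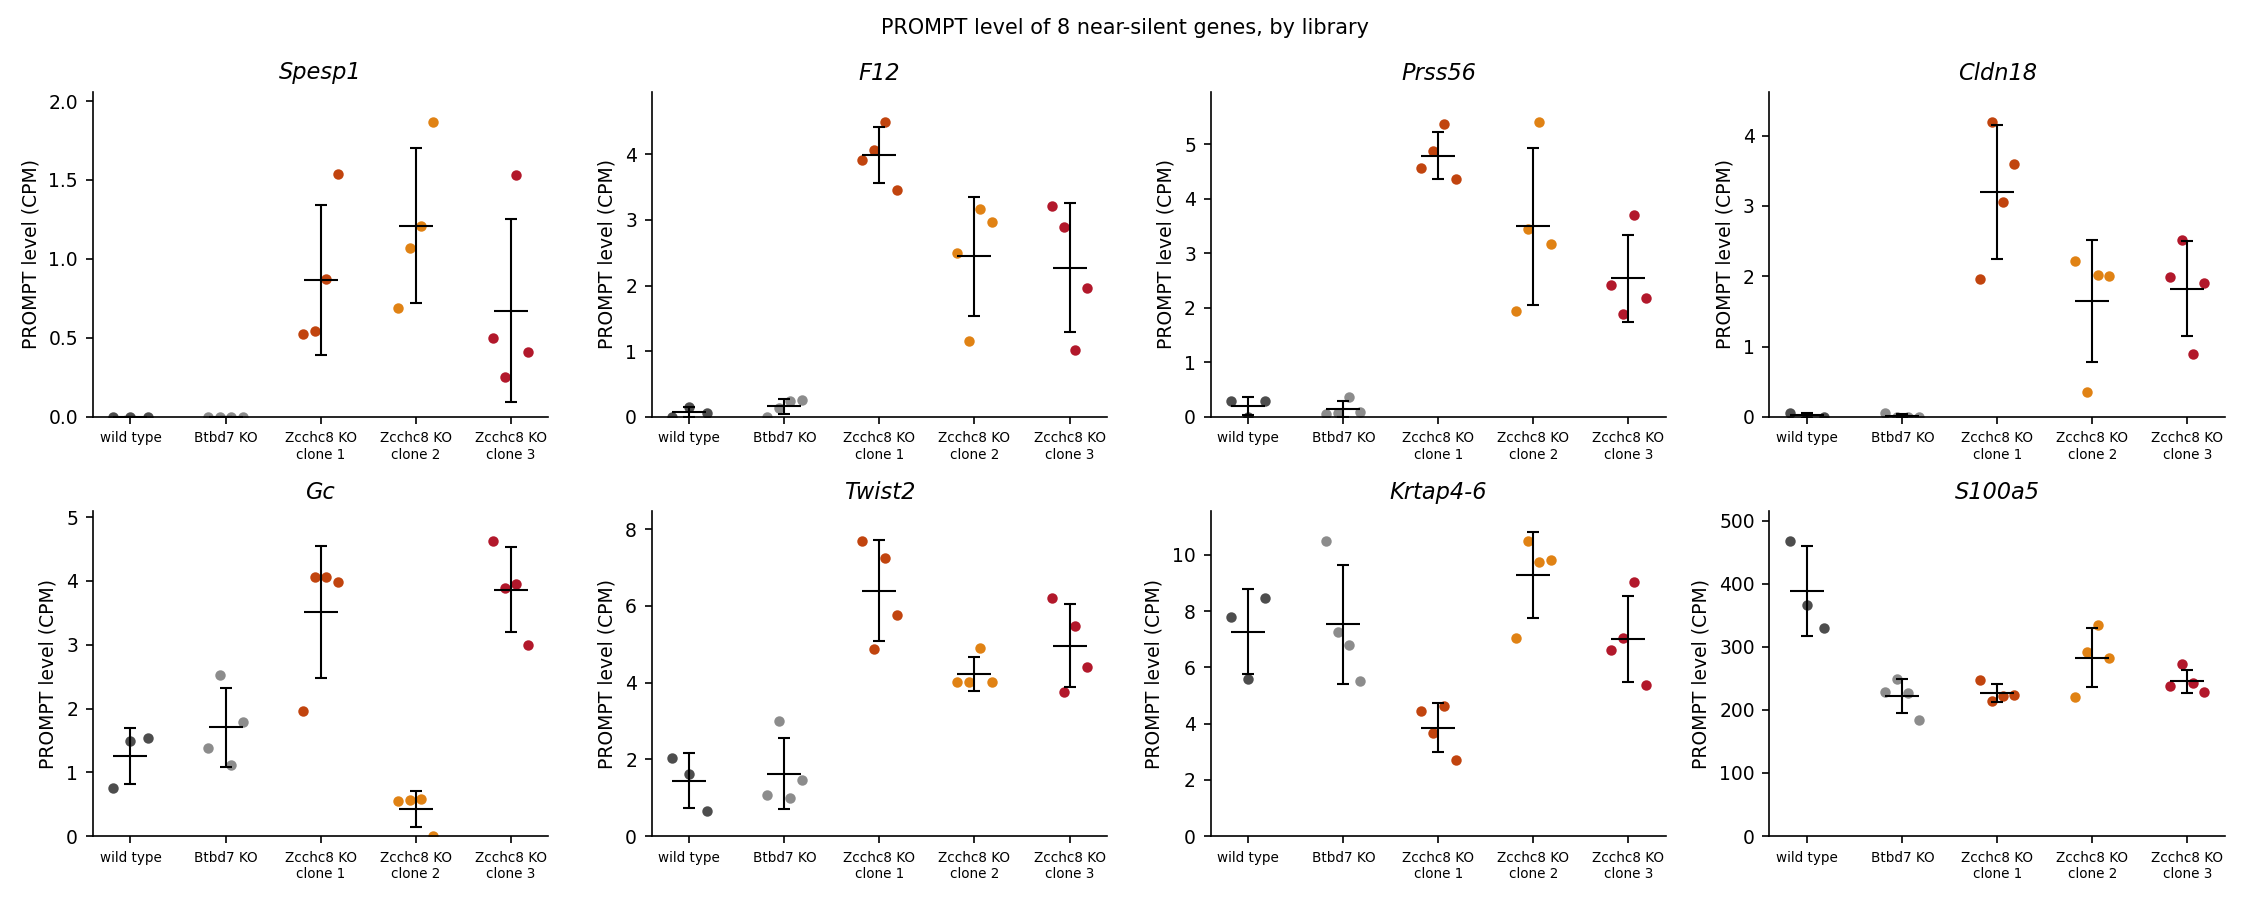
PROMPT level (CPM of gene counts) of 8 members in each of 19 libraries, with points for libraries and bars for mean ± SD. Spesp1, F12, Prss56 and Cldn18 lie at or near 0 in both controls and higher in the 3 Zcchc8 knockout clones, Gc differs between clones, Twist2 is higher in the clones, Krtap4-6 is lowest in clone 1, and S100a5 is highest in wild type.

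Several members moved together with the gene beside them. Twist2, a bHLH transcription factor of mesenchyme, had 1 gene count in all, and its start lies inside Gm29100 on the opposite strand. The Twist2 PROMPT level was 2.04, 1.63 and 0.646 CPM in wild type and 1.08, 3.0, 0.991 and 1.45 CPM in Btbd7 knockout. It rose to 7.7, 4.88, 7.26 and 5.77 CPM in clone 1, 4.01, 4.01, 4.9 and 4.01 CPM in clone 2, and 6.2, 3.76, 5.48 and 4.42 CPM in clone 3, above every control library. The rise was 1.84 ± 0.29 (SE) on the log2 scale for the region and 1.64 ± 0.27 for the Gm29100 gene (edgeR, adjusted p 2.54e-09 and 1.08e-06).

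Gm614, Exosc6 and Gm21972 were chosen after their values were seen, as falls that rested on many counts. Their p-values against wild type come from the comparison that chose them, so for these 3 regions the falls are descriptions. Gm614, a predicted gene on chromosome X, had 20, 29 and 29 PROMPT counts in wild type and 37, 12, 11 and 29 in Btbd7 knockout. It had 0 in all 4 libraries of clone 1, then 0, 5, 3 and 6 in clone 2 and 7, 4, 12 and 7 in clone 3. In log2 units the clones stood at -3.72 ± 0.62 (SE) relative to wild type, with an adjusted p of 3.94e-08 (edgeR). Its neighbour 386 bases away, Il2rg, the common gamma chain of cytokine receptors, had 1.28 ± 0.147 CPM (SD, n = 3) in wild type, was at 0 in clone 1, and changed by -3.28 in log2 units (adjusted p 0.000148 by edgeR).

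Exosc6 encodes a core subunit of the RNA exosome, and is the only one of the listed NEXT, PAXT and exosome genes among the members. Its gene ID had 0 counts in all 19 libraries, and its start lies inside Aars, the alanyl-tRNA synthetase gene, on the same strand, so the count of 0 is no measure of exosome expression. The PROMPT level was 87.3 ± 4.89 CPM (SD, n = 3) in wild type, 95.1 ± 3.2 CPM in Btbd7 knockout, and 53.6 ± 5.13, 49.1 ± 2.86 and 72.8 ± 6.01 CPM (n = 4 each) in clones 1, 2 and 3. On the log2 scale the change was -0.60 ± 0.08 for the Exosc6 PROMPT region and -0.61 ± 0.06 for the Aars gene (SE; adjusted p 8.67e-12 and 8.96e-14 by edgeR). Region and neighbour fell by like amounts, and all 12 clone libraries of the region lay below all 7 controls. Gm21972, a predicted gene with 0 gene counts that starts inside the proteasome subunit gene Psmd1, was the other member with that separation. Its PROMPT level was 29.5 ± 2.7 CPM (SD, n = 3) in wild type and 18.8 ± 0.818, 23.5 ± 3.25 and 20.8 ± 1.77 CPM (n = 4 each) in clones 1, 2 and 3. The log2 fold changes were -0.50 ± 0.10 for the region and -0.47 ± 0.05 for the Psmd1 gene (SE; edgeR adjusted p 1.85e-05 and 9.6e-13).

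The members with the highest wild-type PROMPT levels were Ccnb1ip1, S100a5 and Fam57b, whose own genes had 0, 6 and 19 counts over all libraries. Ccnb1ip1 encodes a ubiquitin ligase of meiotic crossover. Its start is overlapped on the same strand by Rpph1, the RNA of RNase P, at chr14:50807449-50807767, which had 0 to 4 gene counts per library. The Ccnb1ip1 region had 744 ± 230 CPM (SD, n = 3) in wild type and 900 ± 204, 842 ± 59.1, 1070 ± 430 and 1070 ± 120 CPM (n = 4 each) in Btbd7 knockout and clones 1, 2 and 3. One library, clone 2 replicate 3, reached 1710 CPM. The clones stood 0.41 ± 0.07 (SE) above wild type on the log2 scale (adjusted p 5.38e-08 by edgeR), but under edgeR's scaling within the PROMPT table it was -0.00148, and DESeq2 did not call it (adjusted p 0.125).

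S100a5, a calcium-binding protein gene, had a PROMPT level of 468, 366 and 330 CPM in wild type. Btbd7 knockout had 229, 249, 226 and 184 CPM, and the clone libraries 214 to 335 CPM. All edited libraries but 1, a clone 2 library at 335 CPM, lay below the lowest wild-type library. In log2 units the change was -0.63 ± 0.07 for the clones and -0.80 ± 0.08 for Btbd7 knockout (SE; edgeR adjusted p 3.13e-18 and 1.76e-17). The S100a4 gene, 2478 bases away on the same strand, changed by -0.45 ± 0.16 in the clones (SE; edgeR adjusted p 0.0301). Its level was 15.8 ± 2.64 CPM (SD, n = 3) in wild type and 7.98 ± 1.5 CPM (n = 4) in Btbd7 knockout. Clones 1, 2 and 3 had 13.5 ± 3.73, 10.8 ± 3.78 and 10.7 ± 3.99 CPM (n = 4 each). Fam57b had 382 ± 21.9 CPM (n = 3) in wild type and 453 ± 28.9, 416 ± 15.6 and 413 ± 29.3 CPM (n = 4 each) in the clones. Its change of 0.16 ± 0.07 (SE) on the log2 scale (adjusted p 0.0465 by edgeR) stood beside 0.17 ± 0.05 (adjusted p 0.00378) for Aldoa, the glycolytic aldolase gene that overlaps its start on the opposite strand. The Fam57b call was lost when any 1 of 11 libraries was left out, with adjusted p up to 0.275 (edgeR).

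The clones were unequal in 133 members (6.09%), where 8.16% of all regions were. Gc, Gm49393 and Gp1bb were chosen for this difference, so their values are a description. Gc, the vitamin D-binding protein gene made in liver, had no gene in the 5 kb upstream. Its PROMPT level was 0.756, 1.49 and 1.53 CPM in wild type and 1.38, 2.53, 1.11 and 1.79 CPM in Btbd7 knockout. It was 1.96, 4.06, 4.06 and 3.98 CPM in clone 1, 0.553, 0.573, 0.576 and 0 CPM in clone 2, and 4.63, 3.89, 3.95 and 2.99 CPM in clone 3. Clone 2 thus lay below every control library and clone 3 above every one of them. Gm49393, whose start lies inside Ctla2a, had 26.5 ± 8.38, 14.2 ± 2.73 and 41.1 ± 3.92 CPM in the clones (SD, n = 4 each), and the Ctla2a gene had 8.78 ± 1.29, 4.75 ± 0.849 and 13.9 ± 2.55 CPM in the same order. Gp1bb, a platelet glycoprotein gene, was highest in clone 1 at 24.4 ± 2.26 CPM, while clone 2 had 17.2 ± 2.18 and clone 3 had 11.6 ± 1.39 CPM (SD, n = 4 each). Its start lies inside Sept5, whose gene had 4.33 ± 0.844, 3.94 ± 1.2 and 2.69 ± 0.957 CPM in clones 1, 2 and 3 (SD, n = 4 each). Over all 5 groups, 581 members (26.6%) differed, against 45.4% of all regions.

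The lower calls rested on few counts more often than the higher ones did. Of the 73 lower members, 30 had under 30 counts over 19 libraries, as had 7 of the 271 higher members and 706 of all 2184 members. Over 50% of the wild-type counts lay in 1 library for 33 of the 73. That share is not given here for higher members or all regions, so the 33 are a description. The 4 lowest fold changes were those of Gm21987, Nmur1, Foxd4 and Satl1, with 14, 12, 10 and 18 counts in all. Gm21987 had 12, 0 and 0 counts in wild type, and without wild-type replicate 2 its log2 fold change went from -4.55 to 0. Satl1 had 1, 0 and 14, and without wild-type replicate 4 its log2 fold change went from -4.35 to -1.44. Nmur1, the neuromedin U receptor, had 3, 3 and 5, and Foxd4, a forkhead factor, had 7, 3 and 0. The clones held 0 counts at all 4 but for 1 count at Satl1 in clone 3. None of the 4 passed edgeR's own count filter or had a DESeq2 adjusted p.

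By gene family, small numbers of members were called in each list in the mean of the clones against wild type. The lists were made by symbol with earlier results of these data known. Of 1497 near-silent chemosensory receptor genes 61 had a PROMPT region among the members, with 1 higher and 6 lower by edgeR (DESeq2 4 and 1). Developmental transcription factors gave 32 members with 3 higher and 3 lower, neuronal channel and synapse genes 38 with 5 and 0, and immune genes 49 with 5 and 3. Germline genes gave 35 with 4 higher and 2 lower, G protein-coupled receptors 30 with 3 and 0, solute carriers 52 with 5 and 2, and Zfp zinc fingers 13 with 1 and 0. For the zeros among these lower counts, edgeR's unadjusted p was under 0.05 for 1 neuronal member, no receptor and no Zfp member, and DESeq2 called 1 neuronal member lower. Keratins and keratin-associated proteins (21 members) and protocadherins (10) had no call in that comparison by edgeR or DESeq2. In other comparisons edgeR called 2 keratin members lower in clone 1, 1 higher in clone 2, 1 higher against Btbd7 knockout and 2 unequal between clones. It called 1 protocadherin member lower against Btbd7 knockout. All regions gave 2.93%, 27.5%, 34.7%, 8.16% and 4.61% in these, in the same order. At an unadjusted edgeR p under 0.05, 1 keratin member was higher and 2 protocadherin members were lower. The share higher was at or below 13.2% in each list, beneath the 30.3% of all regions. The share lower was largest for chemosensory receptors (9.84%) and developmental transcription factors (9.38%), against 3.03% of all regions. These shares rest on 6 and 3 members, where DESeq2 called 1 lower in each list.

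Named members of the lists ranged from clear rises to none. Il12rb1, the beta 1 chain of the interleukin 12 receptor, had 2, 0 and 0 PROMPT counts in wild type and 3, 2, 0 and 1 in Btbd7 knockout. The counts were 20, 4, 3 and 5 in clone 1, 4, 9, 5 and 18 in clone 2, and 6, 10, 2 and 8 in clone 3. The clones stood 3.90 ± 1.00 (SE) above wild type on the log2 scale. Tssk6, a testis-specific kinase gene whose start lies inside Ndufa13 on the opposite strand, changed by 0.49 ± 0.14 (SE; edgeR adjusted p 0.0026, but 0.0592 by DESeq2 and 0.203 without wild-type replicate 4). Lrrtm2, a synaptic adhesion protein gene whose start lies inside Ctnna1, changed by 0.80 ± 0.16 (SE; edgeR adjusted p 7.07e-06), while the Ctnna1 gene had a log2 fold change of -0.14 ± 0.05. The Lrrtm2 PROMPT level was 6.41 ± 1.41 CPM (SD, n = 3) in wild type and 8.83 ± 0.739 CPM (n = 4) in Btbd7 knockout. Against Btbd7 knockout the clones differed by only 0.35 ± 0.14 (SE; edgeR adjusted p 0.0393). Slc35d3 was at 0 in wild type but held 3, 3, 3 and 6 counts in Btbd7 knockout, so its higher call against wild type (edgeR adjusted p 0.00194) had no counterpart against Btbd7 knockout (log2 fold change 0.28, adjusted p 0.83).

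The members named per gene list as not called in the mean of the clones lay mostly beside expressed genes. This does not set them apart, since members with many counts did so in general. At 1000 or more counts, 335 members had an expressed neighbour and 11 had no gene within 5 kb. Nlgn3, the synaptic protein neuroligin 3, had 12.4, 12.7 and 14.6 CPM in wild type and 10.8 to 17.6 CPM over the clones, which is 0.08 ± 0.13 (SE) in log2 units (adjusted p 0.725 by edgeR). Lhx3, a pituitary transcription factor, had -0.26 ± 0.15, the olfactory receptor Olfr1447 had -0.27 ± 0.14, and H2-Ke6, a gene of the histocompatibility region, had -0.10 ± 0.09 (SE). Krtap4-6, a keratin-associated protein of hair with no gene in the 5 kb upstream, had 7.27 ± 1.51 CPM (SD, n = 3) in wild type but 3.86 ± 0.886 CPM in clone 1, 9.27 ± 1.51 CPM in clone 2 and 7.02 ± 1.53 CPM in clone 3 (n = 4 each). Its mean change of -0.22 ± 0.18 (SE) therefore averages clones that differed (edgeR adjusted p 4.14e-06), and clone 1 alone was called lower (-0.92, edgeR adjusted p 0.000421). Mageb3, Zfp708, Gpr18, Slc22a20 and Pcdhga5 had log2 fold changes from -0.37 to 0.30 and were not called by edgeR in that comparison. Other comparisons and settings called some of these members. With scaling within the PROMPT table, edgeR called Lhx3 (-0.66), Olfr1447 (-0.68), H2-Ke6 (-0.51), Krtap4-6 (-0.62), Nlgn3 (-0.33) and Slc22a20 (-0.36) lower on the log2 scale. Olfr1447 was also called without wild-type replicate 2 (-0.49, edgeR adjusted p 0.0106), and Mageb3 by DESeq2 (0.33, adjusted p 0.048). Against Btbd7 knockout, edgeR called Mageb3 higher (0.77, adjusted p 2.99e-06) and Slc22a20 (-0.43, adjusted p 0.00258) and H2-Ke6 (-0.29, adjusted p 0.00162) lower. Against wild type it called Mageb3 higher in clone 1 (0.47, adjusted p 0.0425) and Olfr1447 lower in clone 2 (-0.44, adjusted p 0.0393).

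The genes downstream of the PROMPT regions were compared with Btbd7 knockout, since wild-type gene counts chose the members. Of 950 member genes with 10 or more counts, 78 were higher in the mean of the clones (8.21%, against 18.1% of all 20365 genes). Another 34 were lower (3.58%, against 20%), by edgeR with adjusted p under 0.05. The median log2 fold change was 0.39 for member genes and 0.01 for all genes. A gene under a mean of 5 counts in wild type could reach 10 counts through the clones, so these calls are descriptions. Of the 271 members whose PROMPT region was higher than in wild type, 158 had a testable gene, of which 20 were higher and 3 lower. For the other 113 the gene had under 10 counts over 19 libraries, and for 55 of these it had none. Gm11011 was among the genes that moved with their region, with a gene-level difference of 4.47 in log2 units on 31 counts over 19 libraries.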

How the data were processed

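SIMS total RNA was sequenced from libraries made with a stranded total RNA kit, per the labels' protocols. STAR 2.7.3a and FastQC are named in the submitters' processing notes. The genome build, the counting tool, and the extent and strand of the PROMPT regions are not given in the sources used here. The authors deposited raw counts per gene and per PROMPT region, keyed by GENCODE gene ID. Identifiers were matched to GENCODE M21 (GRCm38) without their version, which matched 55230 of 55471. Symbols, gene types and positions came from that annotation.

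All 24335 PROMPT regions with 10 or more counts over 19 libraries entered 1 edgeR fit (edgeR 4.0.16, R 4.3.3; quasi-likelihood F test) with 5 groups. Library sizes and TMM factors came from the gene table, and p-values were adjusted by Benjamini-Hochberg over all regions, with calls at adjusted p under 0.05. CPM are counts scaled to 1000000 of these gene totals. The gene table was fitted likewise. DESeq2 1.42.0 was an alternative. A neighbour was expressed at a mean of 1 CPM or more over 19 libraries, within 5 kb upstream of the start. On simulated counts comparing the clones' mean with wild type (24335 regions), the fit recovered 88% of 4-fold and 56% of 2-fold changes. Of its calls, 5.88% were false. The changed regions were drawn only from those with 100 or more counts, which 986 of the 2184 members had. Recovery at lower counts was not simulated.

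The members, gene lists and tests were chosen with earlier results of these data known. The 37 named members followed a rule: the largest rises with and without neighbour conditions, the lowest falls, per gene list the deepest called and uncalled member, the 3 with the highest wild-type level, and the 3 with the clearest difference between clones. Gm614, Exosc6 and Gm21972 were added after their values were seen. Same-numbered libraries of different groups did not deviate together (36 pairs, correlations from -0.0539 to 0.0434), so numbers were not taken as pairs. Replicates of a group differed by more than sampling noise (chi-square per degree of freedom 2.4 or more). Wild-type replicate 1 has no PROMPT column here and entered only the check of the gene counts. Alternatives are given in the closing section. The 6 regulatory feature tables, and motifs in the 1 kb upstream, were not used here.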

Additional observations from a re-analysis of the deposited data

Results flagged for a closer look

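Within groups of 4 libraries, 19 of 135 groups of named members had 1 library far from the other 3 by Dixon's test, and chance flags about 1 in 20 groups. Many of these sit at 1 or 2 counts among zeros. In Btbd7 knockout they were Cldn18 (0.0601 CPM, replicate 1), Gm21987 (0.12 CPM, replicate 1), Nmur1 (0.0667 CPM, replicate 2), Satl1 (0.17 CPM, replicate 4), and Zfp13 and Zscan10 (0.133 CPM each, both replicate 2). Prss56 (0.372 CPM) and Lhx3 (8.05 CPM) stood apart in Btbd7 knockout replicate 3. In clone 1, replicate 1 stood apart for Gc (1.96 CPM) and Il12rb1 (2.61 CPM). Replicate 3 of clone 2 stood apart for Ccnb1ip1 (1710 CPM), Gm11011 (1.56 CPM) and Twist2 (4.9 CPM), replicate 2 for Cldn18 (0.358 CPM), and replicate 4 for Gc (0 CPM) and Gm16253 (3.25 CPM). In clone 3 they were 1700064H15Rik (1.21 CPM, replicate 1), Gng13 (2.51 CPM, replicate 2) and Satl1 (0.068 CPM, replicate 4).

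The 3 clones differed from each other at 8 of the 37 named members by edgeR's quasi-likelihood test. The adjusted p was 3.42e-27 for Gm49393, 1.34e-10 for Gc, 4.41e-10 for Gp1bb, 4.14e-06 for Krtap4-6, 6.42e-05 for Ccnb1ip1, 0.00187 for Gm11011, 0.00417 for S100a5 and 0.0224 for Gng13. Gm49393, Gc and Gp1bb were named for this difference, so theirs is a description.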

How the results depend on the processing

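Values are the share of members called, in % of those tested. Members and regions are called at adjusted p under 0.05. For most settings the share of all regions is not given here, so a shift of the members cannot be told from a shift of all regions. Of 514 alternatives to these shares, 444 stayed within 1.5 times the main value and 70 did not. DESeq2 gave 19.1 higher for the mean of clones against wild type, 20.8 for clone 1, 16.9 for clone 3, 2.42 higher and 1.77 lower for Btbd7 knockout, 23.6 higher for the mean of clones against Btbd7 knockout and 12 for unequal clones. For member genes against Btbd7 knockout it gave 12.5 higher and 2.32 lower. Under edgeR's own count filter, the mean of clones had 22.0 higher, clone 1 21.7 higher and 5.18 lower, clone 2 18.3 and 4.34, clone 3 18.9 and 2.83, Btbd7 knockout 1.51 and 1.32, the mean against Btbd7 knockout 28.0 and 6.79, unequal clones 11.1, and all 5 groups 42.1. With scaling within the PROMPT table, the mean had 7.01 higher and 13.5 lower, clone 1 6.82 and 11.1, clone 2 6.87 and 9.2, clone 3 5.95 and 8.42, and the mean against Btbd7 knockout 7.33 and 14.3. That scaling also turned the log2 fold changes of Nlgn3 (-0.33), Slc22a20 (-0.36), Ccnb1ip1 (-0.00148), Fam57b (-0.25) and Gp1bb (-0.0968) below 0. With 100 or more counts, a choice made after seeing the data, the mean had 21 higher, clone 1 20.4 higher and 5.17 lower, clone 2 16.8 and 4.36, clone 3 17.2 and 2.64, Btbd7 knockout 1.52 and 1.42, the mean against Btbd7 knockout 26.7 and 6.8, unequal clones 11.2, and all 5 groups 41.0. With 10 or more counts in the 7 controls, also chosen after seeing the data, lower calls were 3.86 for clone 1 and 4.2 for clone 2, and higher calls 1.17 for Btbd7 knockout. These filters test fewer members. For an absolute log2 fold change over 1, lower calls were 1.88 for the mean, 0.687 for clone 1, 1.05 for clone 2, 0.687 for clone 3, 0.412 for Btbd7 knockout and 1.51 for the mean against Btbd7 knockout, and higher calls 0.137 for Btbd7 knockout. With no gene in 5 kb, lower calls were 1.03, 1.67 and 0.515 for clones 1, 2 and 3, 0.129 for Btbd7 knockout and 1.93 for the mean against it, and higher calls 0.129 for Btbd7 knockout. Lower calls were 0.962 for the mean with cell lines as replicates, and for clone 2 1.74 without a count filter and 1.82 with libraries thinned to 1 depth. Where no filter names the cause, the cause was not tested.

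Leaving out each library in turn gave, for the mean of clones against wild type, 9.62 to 12.9 higher and 2.47 to 3.57 lower. Clone 1 ranged from 10.3 to 13.5 and 1.97 to 2.66, clone 2 from 8.38 to 10.9 and 1.65 to 2.75, clone 3 from 8.65 to 10.9 and 1.01 to 1.92, and Btbd7 knockout from 0.412 to 1.01 and 0.458 to 0.733. The mean against Btbd7 knockout ranged from 12.6 to 16.3 higher and 3.48 to 4.44 lower, unequal clones from 4.53 to 6.91, all 5 groups from 24.4 to 27.1, and member genes from 6.42 to 8.95 higher and 2.53 to 3.89 lower. Lower calls moved by over 1.5 times without replicate 1 (1.83), 2 (1.74) or 4 (1.65) of clone 2, and without replicate 4 of clone 3 (1.01). Higher calls in Btbd7 knockout did so without its replicate 1 (0.458) or wild-type replicate 4 (0.412). Among named members, leaving out 1 library ended the call of Fam57b for 11 libraries, of Gp1bb for 9, and of Gm21987, Satl1 and Tssk6 for 1 each. With the replicate number as a block, the mean of clones against wild type had 10.8 higher and 2.24 lower, all block shares stayed within 1.5 times the main ones, and 1 of 19 libraries correlated best with its own number.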
